A study of Mus musculus with 36 samples.

Results

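The messenger RNAs of 9 secreted cytokines were followed through every group of the study: the IL-6 family ligands Il6, Lif and Osm, the IL-12 family subunits Il12b, Il23a and Il27, the tumour necrosis factor gene Tnf, the macrophage growth factor gene Csf1 and the anti-inflammatory cytokine Il10. They were picked by symbol from the 55421 genes of the count table, after earlier results of the same data had shown cytokine genes to be higher in stimulated slices. The difference between stimulated and sham slices is therefore given as a description: edgeR calls are counted beside the share over all genes, and nothing is read from them. Differences between genotypes and between treatments were tested. Excepted are Il23a in stimulated VEH slices, where the genotype difference was already known, and more widely Il23a and Il27 between genotypes, since both reached 10 counts only in stimulated T41B slices and passed the filter on low counts through them.

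The slices came from the right hippocampus of 18 mice, which were C57BL/6 wild-type mice (WT) or T41B mice. T41B is the Thy1-hAPP Lond/Swe line 41, in which a Thy1 cassette, active mainly in neurons, drives human APP with the London and Swedish mutations. All mice were gavaged for 3 months, from 13 to 16 months of age, with the vehicle (VEH) or with BD10-2, which partially activates TrkB and TrkC, receptors for neurotrophins, so that controls too had been gavaged and sliced. A slice then received theta-burst stimulation (stim), given 3 times as 10 bursts 200 ms apart with 4 stimuli at 100 Hz in a burst, or a sham procedure of the same length, and was frozen at once. The groups WT VEH sham, WT VEH stim, T41B VEH sham and T41B VEH stim held 4 mice each. WT BD10-2 sham and WT BD10-2 stim held 3 mice each, and T41B BD10-2 sham and T41B BD10-2 stim 5 mice each. Of the 18 mice, 14 gave both a sham and a stimulated slice.

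IL-6, LIF and oncostatin M signal through receptors that share the gp130 chain (Il6st) and activate JAK kinases and STAT3. The IL-12 family works as pairs of subunits: the p40 chain (Il12b) joins p35 (Il12a) to form IL-12 or p19 (Il23a) to form IL-23, and p28 (Il27) joins Ebi3 to form IL-27. In inflamed brain TNF and several of these interleukins are made largely by microglia, IL-10 limits their production through STAT3, and CSF-1 keeps microglia alive through its receptor Csf1r.

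NF-kappaB and AP-1 are known regulators of cytokine genes, so the 250 bases before the RefSeq transcription start (GRCm38.p6) were searched for short motifs. Promoter entries were found for 5 of the 9 members, Il6, Lif, Il12b, Tnf and Csf1. The motifs were the kappaB site, the AP-1 site TGANTCA, the CRE TGACGTCA, the STAT site TTCNNNGAA and the C/EBP site TTGCNNAA, read on both strands. The 3 windows with a match are printed 5′ to 3′ on the strand of the gene, to show where the matches lie against the start. Capitals mark the matches, and each sequence ends 1 base before the start. They are chr5:30012864-30013113 (plus strand) for Il6, chr11:4257318-4257567 (plus strand) for Lif and chr3:107760470-107760719 (minus strand) for Csf1.
Il6: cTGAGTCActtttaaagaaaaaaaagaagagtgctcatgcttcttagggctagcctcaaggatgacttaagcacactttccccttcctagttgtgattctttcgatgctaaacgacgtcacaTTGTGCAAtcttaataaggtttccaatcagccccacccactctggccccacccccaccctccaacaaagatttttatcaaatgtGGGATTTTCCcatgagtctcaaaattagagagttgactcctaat
Lif: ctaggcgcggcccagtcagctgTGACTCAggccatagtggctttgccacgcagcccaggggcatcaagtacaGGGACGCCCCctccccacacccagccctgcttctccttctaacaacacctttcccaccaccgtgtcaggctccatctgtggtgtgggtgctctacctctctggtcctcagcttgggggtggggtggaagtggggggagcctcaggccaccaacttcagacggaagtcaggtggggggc
Csf1: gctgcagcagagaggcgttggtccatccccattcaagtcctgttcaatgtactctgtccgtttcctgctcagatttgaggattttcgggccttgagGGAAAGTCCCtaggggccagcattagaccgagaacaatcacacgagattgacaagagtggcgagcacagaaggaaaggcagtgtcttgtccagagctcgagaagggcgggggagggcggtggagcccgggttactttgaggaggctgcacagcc

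The Il6 window held an AP-1 match at bases -249 to -243 from the start, a C/EBP match at -128 to -121 and a kappaB match, GGGATTTTCC, at -44 to -35. The Lif window held an AP-1 match at -228 to -222 and a kappaB match, GGGACGCCCC, at -178 to -169. The Csf1 window held a kappaB match, GGAAAGTCCC, at -154 to -145. The Il12b and Tnf windows held no match to any of the 5 motifs, which says only that these letters are not in the 250 bases read. Of 32851 mouse promoter windows of the same length, 7.25% held the kappaB motif, 6.75% the AP-1 motif, 1.55% the CRE, 7.02% the STAT motif and 9.56% the C/EBP motif. No match overlapped another in the 3 windows, and a match is a run of letters, not a shown binding site.

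The 36 libraries held 11597555 to 28125842 counts, with a median of 18082415. In 4 cases 2 libraries carried the same mouse and stimulation, and they were summed to give 32 samples. Markers of hippocampal neurons (6 of 6 genes present, among them Neurod6 and Prox1) summed to between 1540 and 2770 CPM, the count scaled to library size. Thy1, the gene whose cassette drives the transgene, lay at 255 to 400 CPM of the library total in WT libraries and at 880 to 2412 CPM in T41B libraries, and so separated the labelled genotypes. The lowest T41B value was that of the first stimulated library of Mouse1592 (T41B BD10-2), and the next lowest was 1006 CPM. Per library total, that library held less of some cytokines than the second library with the same labels, with 8.58 against 31.1 CPM of Il6, 12.5 against 35.4 CPM of Il12b and 3.07 against 12.4 CPM of Il23a, but about as much Tnf, at 253 against 261 CPM. Other pairs of libraries with equal labels differed too, as the sham libraries of Mouse1557 did for Il6, at 1.51 against 3.54 CPM. Without it, the number of members called was as before in each comparison that uses the T41B BD10-2 stim group.

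Levels are CPM scaled by TMM, a factor that corrects for library composition, and each SD is over mice. All 9 members passed the filter on low counts, but Il10 reached 10 counts in a sample only after stimulation, and Il23a and Il27 only after stimulation in T41B mice. In stimulated VEH slices, the level per kb of exon was highest for Tnf in both genotypes, at 91.9 ± 42.3 CPM per kb in WT and 157 ± 37.0 CPM per kb in T41B mice (SD, n = 4 each). In WT mice Csf1 followed at 12.7 ± 1.28 CPM per kb, then Lif at 9.05 ± 3.83 CPM per kb, Il12b at 5.35 ± 3.22 CPM per kb and Il6 at 4.54 ± 1.69 CPM per kb (SD, n = 4 each). Neighbours in that order differed by less than the larger of their SDs. Il10 at 1.37 ± 0.631 CPM per kb and Osm at 1.32 ± 0.412 CPM per kb were next, again within their spread, and Il27 at 0.0812 ± 0.0734 CPM per kb and Il23a at 0.0562 ± 0.0188 CPM per kb came last.

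In T41B mice Il12b, at 26.6 ± 6.28 CPM per kb, and Lif, at 25.8 ± 4.16 CPM per kb, stood behind Tnf within each other's spread, and so did Il6, at 20.8 ± 3.01 CPM per kb, and Csf1, at 20.4 ± 2.87 CPM per kb (SD, n = 4 each). Osm was at 3.83 ± 0.744 CPM per kb. Il10 at 2.51 ± 0.648 CPM per kb and Il23a at 2.35 ± 0.833 CPM per kb were within their spread, and Il27 was lowest at 0.938 ± 0.422 CPM per kb. In sham slices Csf1 and Tnf held the first places in every group.

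**Figure D1:**
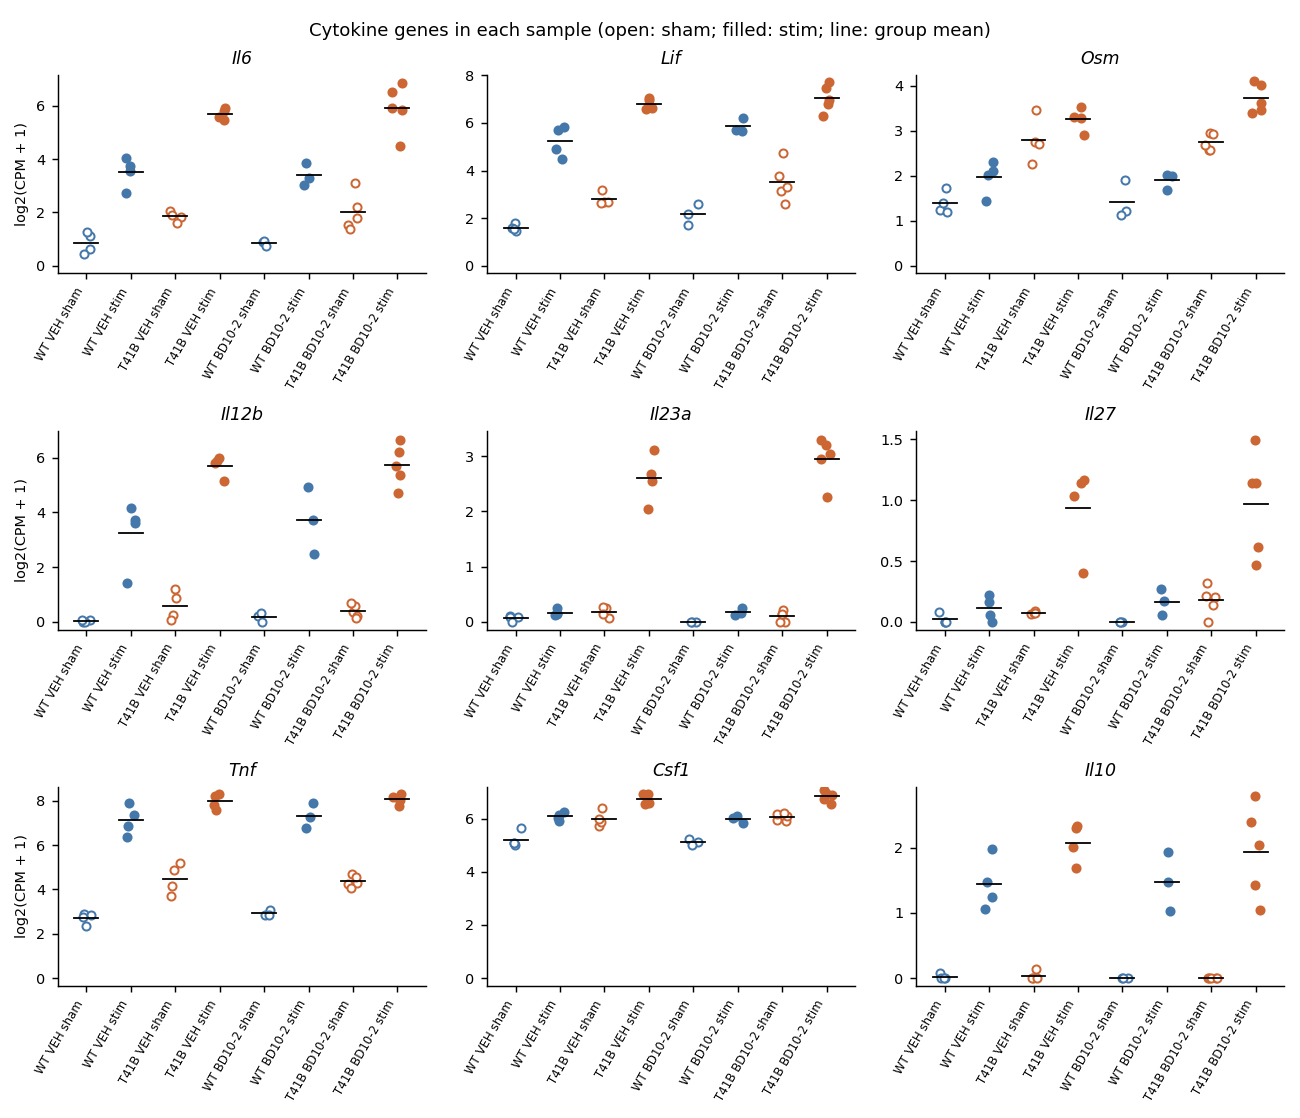
Level of each of the 9 cytokine genes in each of the 32 samples, as log2(CPM + 1) on the vertical axis, by group on the horizontal axis. Open circles are sham and filled circles stimulated slices, blue is WT and orange T41B, and the line is the group mean; Il23a stays near 0 in all groups except T41B VEH stim and T41B BD10-2 stim.

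In stimulated against sham slices, the fitted log2 fold change was positive for all 9 members in all 4 combinations of genotype and treatment. A gene is called here at an edgeR adjusted p under 0.05, with the adjustment over 19478 genes. In WT VEH mice 6 of the 9 members were called higher, where the share over all genes was 8.21% higher and 4.1% lower. In T41B VEH mice 8 members were called higher, where that share was 11.7% higher and 9.83% lower. In WT BD10-2 mice 8 members were called higher (all genes: 6.29% higher, 2.58% lower), and in T41B BD10-2 mice all 9 (all genes: 13.3% higher, 9.54% lower). Since stimulated levels led to the choice of the genes, nothing is read from these counts. With the mouse as a replicate block, which pairs the slices of one mouse, the counts were 7, 9, 6 and 9 in the same order: Osm entered in both VEH genotypes, and Il23a and Il27 left in WT BD10-2 mice.

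The log2 fold change of Csf1 was 0.88 (SE 0.14) in WT VEH, 0.76 (SE 0.14) in T41B VEH, 0.87 (SE 0.16) in WT BD10-2 and 0.8 (SE 0.12) in T41B BD10-2 mice. That of Osm was 0.85 (SE 0.31), 0.46 (SE 0.26), 0.57 (SE 0.33) and 1.12 (SE 0.24) in the same order, and its sham and stimulated samples overlapped in all groups but T41B BD10-2. Tnf, Lif and Il6 had means in stimulated slices that were 11 to 26.5 times (Tnf), 11.6 to 19.2 times (Lif) and 12.2 to 19.9 times (Il6) the sham means. Il10 started at 0 to 2 counts in a sham slice and Il12b at 0 to 26 counts, while Il23a and Il27 held at most 7 counts in any WT slice, stimulated or not.

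**Figure D2:**
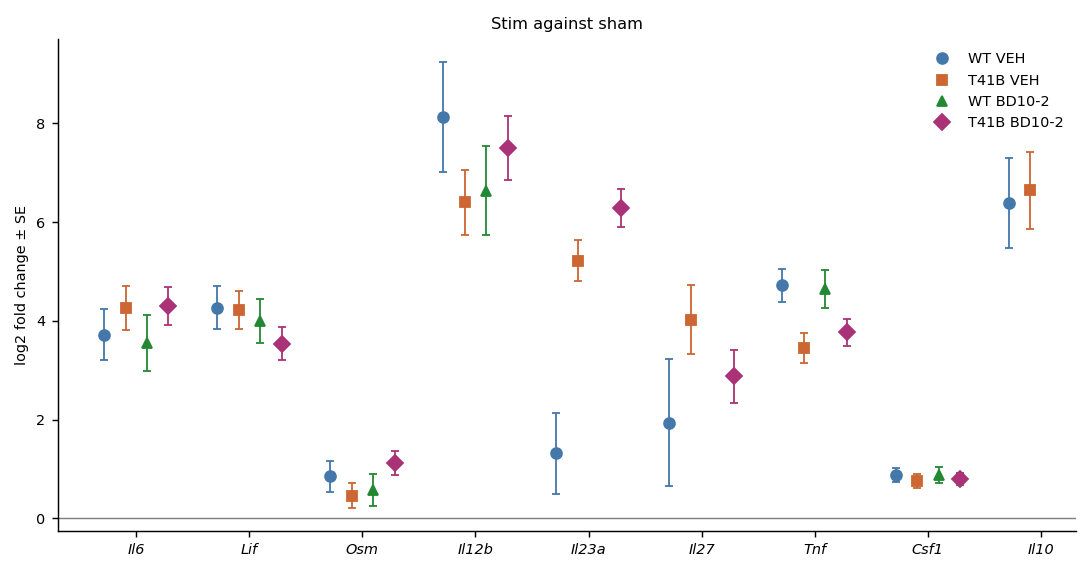
Log2 fold change of stimulated against sham slices (vertical axis; bars are standard errors) for each member (horizontal axis) in the 4 combinations of genotype and treatment. Values against a sham group with no counts are not drawn; Il12b reaches 8.13 in WT VEH mice, and Csf1 stays between 0.76 and 0.88.

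Across the 14 mice with both slices, the stimulated slice was higher in 14 of 14 for Il6, Lif, Il12b, Il23a, Tnf, Csf1 and Il10, and in 13 of 14 for Osm and Il27. The median difference between the slices of a mouse on the log2(CPM + 1) scale was 4.63 for Il12b, 3.94 for Tnf, 3.66 for Lif and 3.46 for Il6. It was 2.03 for Il23a, 1.77 for Il10, 0.85 for Csf1, 0.71 for Osm and 0.28 for Il27. The added 1 shrinks these values for genes at a few CPM.

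Between genotypes, all called members were higher in T41B mice. Il23a and Il27, which passed the filter only through stimulated T41B slices, are left aside here, as is Il10 in sham slices, where its groups hold 0 to 2 counts. In sham VEH slices 4 of the 6 members left were called (Csf1, Lif, Osm and Tnf), where the share of all genes called was 5.0% higher and 1.24% lower. In stimulated VEH slices 5 of 7 were called (Csf1, Il12b, Il6, Lif and Osm), where the share of all genes was 4.74% higher and 1.05% lower. In sham BD10-2 slices 5 of 6 were called, all but Il12b (all genes: 4.31% higher, 1.14% lower), and in stimulated BD10-2 slices 5 of 7, all but Il10 and Tnf (all genes: 8.19% higher, 2.36% lower). The median log2 fold change of these members was 1.79, 1.51, 1.61 and 1.27 in the same order, against 0.0, -0.03, 0.01 and -0.02 over all genes.

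With batch as a covariate, 3 of the 7 were called in stimulated VEH slices (Il12b, Il6 and Lif), where the fit called 3.08% of all genes higher. In sham BD10-2 slices 3 of the 6 were called without Mouse1565 (all genes: 2.46% higher) or without Mouse1590 (2.16% higher). In stimulated BD10-2 slices 3 of the 7 were called without Mouse1565 (5.0% higher) or without Mouse1586 (6.17% higher).

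**Figure D3:**
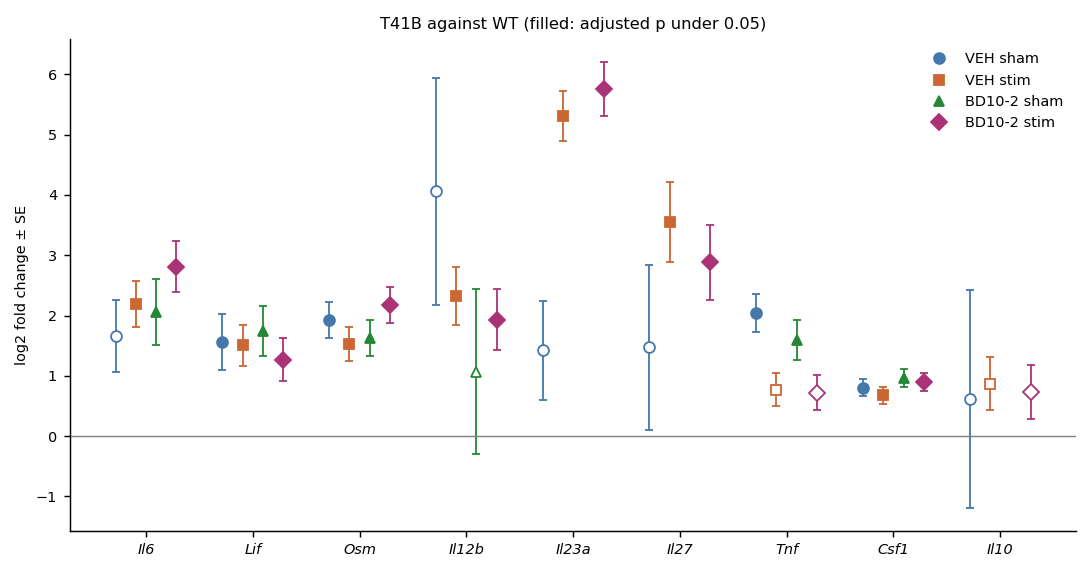
Log2 fold change of T41B against WT mice (vertical axis; bars are standard errors) for each member (horizontal axis) in the 4 combinations of treatment and stimulation; filled symbols have an edgeR adjusted p under 0.05, which for Il23a and Il27 is no test. Comparisons with a WT group at 0 counts are not drawn; Il23a stands at 5.31 and 5.76 in stimulated slices, while Tnf is at 0.77 and 0.72 there and at 2.04 and 1.6 in sham slices.

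Il6 encodes the ligand that gave its family the name. In WT VEH mice it was at 0.534, 1.15, 1.38 and 0.346 CPM in the 4 sham slices and at 15.4, 12.5, 10.6 and 5.59 CPM in the stimulated ones. In T41B VEH mice it was at 3.19, 2.57, 2.07 and 2.78 CPM in sham slices and at 46.4, 58.5, 54.7 and 42.6 CPM in stimulated ones. Sham and stimulated samples did not overlap, nor did the genotypes within either kind of slice. Under BD10-2, Il6 was at 0.866, 0.887 and 0.65 CPM in WT sham and at 7.14, 8.8 and 13.3 CPM in WT stimulated slices. In T41B BD10-2 mice it was at 2.45, 1.9, 7.52, 3.64 and 1.59 CPM in sham and at 114, 55.7, 90.4, 21.2 and 59 CPM in stimulated slices. The genotypes were again apart, and the lowest stimulated T41B sample was that of Mouse1592.

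Tested between genotypes, Il6 was higher in T41B mice in stimulated VEH slices (log2 fold change 2.19, SE 0.38, adjusted p = 0.000286 by edgeR), in sham BD10-2 slices (2.06, SE 0.55, adjusted p = 0.0234 by edgeR) and in stimulated BD10-2 slices (2.81, SE 0.42, adjusted p = 2.67e-05 by edgeR; 2.87 without the first stimulated library of Mouse1592). In sham VEH slices the log2 fold change of 1.66 (SE 0.59, adjusted p = 0.0957 by edgeR) did not pass. It passed there with batch as a covariate, with DESeq2 and in a fit of those groups alone, and the adjusted p ran from 0.00953 to 0.237 over the alternatives. The sham BD10-2 call was lost without Mouse1565, Mouse1571, Mouse1563 or Mouse1590, each alone, and with the first library of each mouse only (adjusted p from 0.00124 to 0.113 over the alternatives). Within the labelled batches that hold both genotypes, the T41B mean was higher in 4 of 4 batches for sham slices, by 0.63 to 1.49 on the log2(CPM + 1) scale, and in 3 of 3 for stimulated slices, by 2.03 to 2.73, each batch holding 1 or 2 mice of a genotype.

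Lif, whose product acts through gp130 and the LIF receptor, was more abundant than Il6 per kb in each group. In VEH mice it ran from 1.72 to 2.52 CPM in WT sham, from 21.5 to 56.1 CPM in WT stimulated, from 5.21 to 8.14 CPM in T41B sham and from 96.1 to 132 CPM in T41B stimulated slices. Under BD10-2 it ran from 2.27 to 5.06 CPM in WT sham, from 49.3 to 72.9 CPM in WT stimulated, from 5.03 to 25.6 CPM in T41B sham and from 77.8 to 210 CPM in T41B stimulated slices. The genotypes overlapped in BD10-2 sham slices, where T41B Mouse1592 was at 5.03 CPM and WT Mouse1571 at 5.06 CPM, and in no other pair of groups.

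Lif was called higher in T41B mice in all 4 genotype comparisons. The log2 fold change was 1.56 (SE 0.46, adjusted p = 0.0368 by edgeR) in sham VEH, 1.51 (SE 0.34, adjusted p = 0.00446 by edgeR) in stimulated VEH, 1.74 (SE 0.41, adjusted p = 0.00906 by edgeR) in sham BD10-2 and 1.27 (SE 0.35, adjusted p = 0.0166 by edgeR) in stimulated BD10-2 slices. The sham VEH call was lost when any mouse but Mouse1510 was left out, and with the first library of each mouse only (adjusted p from 0.00103 to 0.108 over all alternatives). The sham BD10-2 call was lost without Mouse1565 or Mouse1590 (adjusted p from 0.00101 to 0.0879) and the stimulated BD10-2 call without Mouse1565, Mouse1586 or Mouse1564 (adjusted p from 0.00222 to 0.123). Within batches the T41B mean of Lif was higher in 4 of 4 for sham slices, by 0.88 to 1.62, and in 3 of 3 for stimulated slices, by 0.96 to 2.11, on the log2(CPM + 1) scale.

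Osm, which encodes the ligand of the receptor chain Osmr, lies 16541 bases from Lif on chromosome 11. It was separated by genotype in every kind of slice, and by stimulation in T41B BD10-2 mice. In VEH mice it ran from 1.3 to 2.33 CPM in WT sham and from 1.71 to 3.93 CPM in WT stimulated slices, against 3.81 to 10.1 CPM in T41B sham and 6.5 to 10.6 CPM in T41B stimulated slices. Under BD10-2 it ran from 1.19 to 2.75 CPM in WT sham and from 2.23 to 3.04 CPM in WT stimulated slices, against 4.95 to 6.7 CPM in T41B sham and 9.54 to 16.2 CPM in T41B stimulated slices.

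Osm was called higher in T41B mice in all 4 comparisons, with log2 fold changes of 1.93 (SE 0.3, adjusted p = 8.04e-05 by edgeR) in sham VEH, 1.53 (SE 0.28, adjusted p = 0.00045 by edgeR) in stimulated VEH, 1.63 (SE 0.3, adjusted p = 0.000804 by edgeR) in sham BD10-2 and 2.18 (SE 0.3, adjusted p = 8.74e-06 by edgeR; 2.26 without the first stimulated library of Mouse1592) in stimulated BD10-2 slices. The stimulated VEH value was 1.01 with batch as a covariate, where the call was lost (adjusted p from 1.99e-06 to 0.0749 over the alternatives). Within batches the T41B mean was higher by 0.53 to 1.81 in 4 of 4 for sham and by 0.88 to 1.67 in 3 of 3 for stimulated slices, on the log2(CPM + 1) scale.

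Il12b, the p40 chain of both IL-12 and IL-23, was close to absent from sham slices. In WT VEH mice the sham slices held 1, 0, 0 and 1 counts and the stimulated slices 247, 223, 39 and 272 counts, or 11.4, 12.3, 1.69 and 16.7 CPM. The ratio of the summed rates was 316, with a counting interval of 87.1 to 2610 that covers counting error only. In T41B VEH mice Il12b was at 0.188, 1.28, 0.85 and 0.0525 CPM in sham and at 34.4, 57.5, 62.3 and 55.4 CPM in stimulated slices. All 4 stimulated T41B samples were above all WT samples.

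Under BD10-2, Il12b was at 0.157, 0.261 and 0 CPM in WT sham and at 4.66, 12.3 and 29.4 CPM in WT stimulated slices. In T41B BD10-2 mice it was at 0.283, 0.495, 0.156, 0.636 and 0.106 CPM in sham and at 50.5, 73.8, 40.6, 25.4 and 99.6 CPM in stimulated slices. The stimulated genotypes overlapped, through T41B Mouse1592 at 25.4 CPM and WT Mouse1571 at 29.4 CPM. Il12b was called higher in T41B mice in stimulated VEH slices (log2 fold change 2.33, SE 0.48, adjusted p = 0.00209 by edgeR) and in stimulated BD10-2 slices (1.93, SE 0.51, adjusted p = 0.0109 by edgeR; 2.0 without the first stimulated library of Mouse1592). The BD10-2 call was lost without Mouse1565 or Mouse1586, with DESeq2 and in a fit of those groups alone (adjusted p from 0.00273 to 0.126). In sham slices Il12b did not pass under VEH (46 counts in T41B against 2 in WT mice, log2 fold change 4.06, SE 1.88, adjusted p = 0.206 by edgeR; from 0.0134 to 0.483 over the alternatives, passing with DESeq2) or under BD10-2 (33 against 13 counts, 1.07, SE 1.37, adjusted p = 0.719 by edgeR). Within batches the stimulated T41B mean was higher in 3 of 3, by 1.67 to 3.72 on the log2(CPM + 1) scale.

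Il23a, the p19 chain that turns p40 into IL-23, was the member most divided by genotype among stimulated slices. In WT VEH mice it held 1, 1, 1 and 0 counts in sham and 4, 2, 2 and 2 counts in stimulated slices, and in WT BD10-2 mice 0, 0 and 0 counts in sham and 3, 3 and 3 counts in stimulated slices. In T41B VEH mice it held 3, 1, 4 and 2 counts in sham and 69, 95, 89 and 118 counts in stimulated slices. In T41B BD10-2 mice it held 4, 0, 3, 0 and 2 counts in sham and 135, 150, 63, 280 and 115 counts in stimulated slices. All 9 stimulated T41B samples thus stood far above all other samples, and the stimulated WT slices stayed at a few counts.

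In CPM, Il23a in stimulated VEH slices was at 0.126 ± 0.0422 CPM in WT and 5.28 ± 1.87 CPM in T41B mice (SD, n = 4 each). The log2 fold change was 5.31 (SE 0.42). In stimulated BD10-2 slices it was at 0.132 ± 0.0495 CPM in WT (SD, n = 3) and 6.97 ± 1.97 CPM in T41B mice (SD, n = 5). The fitted log2 difference was 5.76 (SE 0.45; 5.94 without the first stimulated library of Mouse1592). Both values are descriptions, since the first was known beforehand and the gene entered the fit only through the stimulated T41B slices. Within batches the stimulated T41B mean was higher in 3 of 3, by 1.93 to 2.96 on the log2(CPM + 1) scale. In sham slices Il23a held 10 counts in all in T41B against 3 in WT VEH mice, and 9 against 0 counts under BD10-2, where 2 of the 5 T41B samples were at 0 as well.

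No test is given of whether the response of Il23a to stimulation differed between genotypes, since it would restate the known difference in stimulated VEH slices. The WT VEH values were 10 counts in stimulated against 3 in sham VEH slices, a ratio of rates of 2.69 with a counting interval of 0.694 to 15.2 that covers counting error only. In WT BD10-2 mice they were 9 counts in stimulated against 0 in sham slices. In each of the 6 WT mice with both slices the stimulated slice was higher, by 0.03 to 0.25 on the log2(CPM + 1) scale.

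The partner subunits of the IL-12 family were low. Il12a, the p35 chain that completes IL-12, held 2 to 15 counts in each of the 32 samples and was called in none of the 8 stimulation and genotype comparisons, with log2 fold changes from -0.49 to 1.14. Ebi3, the partner of p28, held 4 to 68 counts and was higher in T41B mice in all 4 genotype comparisons, with log2 fold changes of 1.28 (SE 0.35, adjusted p = 0.0264 by edgeR) in sham VEH and 1.91 (SE 0.31, adjusted p = 0.000131 by edgeR) in stimulated VEH slices. After stimulation the log2 fold change of Ebi3 was 1.23 (SE 0.29) in T41B VEH and 1.24 (SE 0.26) in T41B BD10-2 mice. It was 0.6 (SE 0.37) in WT VEH and 0.73 (SE 0.38) in WT BD10-2 mice. These values are descriptions, and the genotype difference in the response of Ebi3 was called under neither treatment.

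Il27, the p28 chain, was the scarcest member in stimulated T41B slices. It held 0 to 1 counts in WT VEH sham and 0 to 3 counts in WT VEH stimulated slices, 1 count in each T41B VEH sham slice, and 23, 22, 22 and 5 counts in the T41B VEH stimulated slices. Under BD10-2 it held 0 counts in WT sham, 1 to 7 counts in WT stimulated, 0 to 6 counts in T41B sham and 9 to 29 counts in T41B stimulated slices. The stimulated genotypes did not overlap in CPM, and the sham genotypes did.

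Between genotypes the log2 fold change of Il27 was 3.55 (SE 0.66) in stimulated VEH and 2.88 (SE 0.62) in stimulated BD10-2 slices. These too are descriptions, as Il27 entered the fit only through the stimulated T41B slices. In sham slices Il27 held 4 counts in all in T41B against 1 in WT VEH mice, and 14 against 0 counts under BD10-2. The end of Il27 overlaps the gene Apobr on the other strand, and the strand setting of the counting is not given in the sources used here, so these counts are uncertain.

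**Figure D4:**
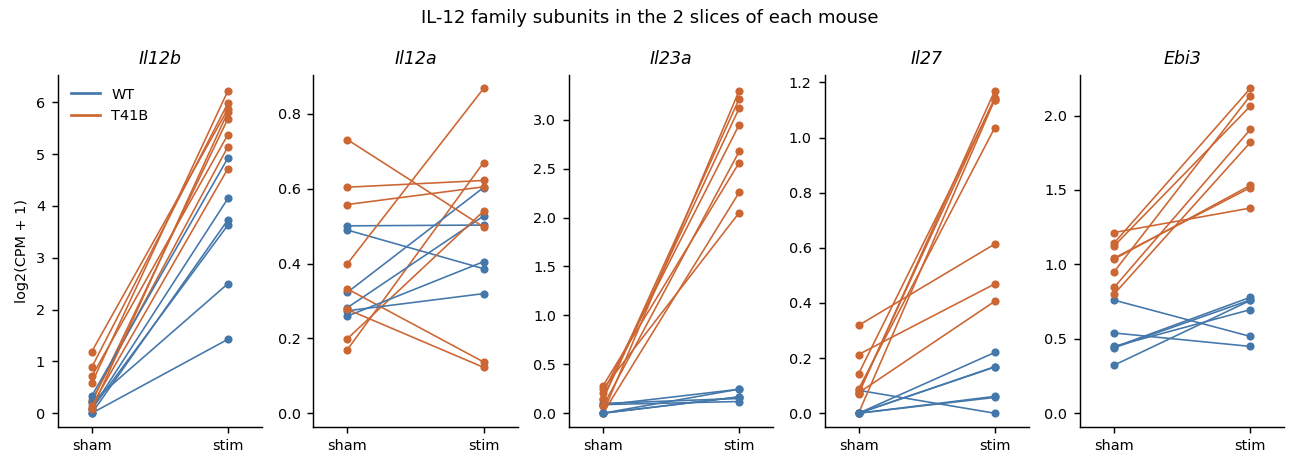
The 5 IL-12 family subunits in the sham and stimulated slice of each of the 14 mice with both (horizontal axis), as log2(CPM + 1) on a vertical axis of its own in each panel; a line joins the slices of 1 mouse, blue is WT and orange T41B. Il12b is higher in the stimulated slice of all 14 mice, Il23a is high only in stimulated T41B slices, and Il12a has no common direction.

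Tnf, which encodes the trimeric cytokine that binds Tnfrsf1a and Tnfrsf1b, was the most abundant member per kb in stimulated slices. In WT VEH mice it was at 6.46, 4.18, 6.29 and 5.83 CPM in sham and at 165, 114, 82.5 and 241 CPM in stimulated slices. In T41B VEH mice it was at 12.2, 36, 28.4 and 16.8 CPM in sham and at 222, 300, 190 and 316 CPM in stimulated slices. The genotypes were apart in sham slices and overlapped in stimulated ones.

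The same held under BD10-2. Tnf was at 6.18, 7.41 and 6.28 CPM in WT sham and at 108, 153 and 236 CPM in WT stimulated slices. In T41B BD10-2 mice it was at 17.7, 18.8, 24.9, 22.8 and 16 CPM in sham and at 219, 274, 287, 263 and 320 CPM in stimulated slices. Every T41B sham slice lay above every WT sham slice, while the stimulated genotypes met between 219 and 236 CPM.

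In sham slices Tnf was higher in T41B mice, by a log2 fold change of 2.04 (SE 0.32, adjusted p = 8.5e-05 by edgeR) under VEH and 1.6 (SE 0.33, adjusted p = 0.00222 by edgeR) under BD10-2. In stimulated slices the log2 fold changes of 0.77 (SE 0.27, adjusted p = 0.101 by edgeR) and 0.72 (SE 0.29, adjusted p = 0.113 by edgeR) did not pass. They passed without WT Mouse1524 under VEH (adjusted p from 0.0147 to 0.318 over the alternatives) and without WT Mouse1571 under BD10-2 (adjusted p from 0.0422 to 0.502). Tested as an interaction, the T41B response to stimulation was smaller by 1.26 on the log2 scale under VEH (interaction -1.26, SE 0.42, unadjusted p = 0.00509, adjusted p = 0.436 by edgeR) and by 0.88 under BD10-2 (interaction -0.88, SE 0.42, unadjusted p = 0.0459, adjusted p = 1.0 by edgeR), and neither passed. Within batches the T41B mean was higher by 0.86 to 1.39 in 4 of 4 for sham and by 0.39 to 1.42 in 3 of 3 for stimulated slices, on the log2(CPM + 1) scale.

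The genes next to Tnf on chromosome 17 encode the related lymphotoxins and stayed low. Lta, 1157 bases away, summed to 4 to 13 counts in a group and Ltb, 3061 bases away on the other side, to 10 to 29 counts in a group. Neither passed the filter, and neither was tested.

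Csf1, the growth factor of microglia and macrophages, was the most abundant or second most abundant member in all sham groups. In VEH mice it ran from 31.4 to 48.5 CPM in WT sham, 59.8 to 75.1 CPM in WT stimulated, 51.3 to 82.8 CPM in T41B sham and 92.7 to 122 CPM in T41B stimulated slices. Under BD10-2 it ran from 31.4 to 36.4 CPM in WT sham, 56.6 to 66.9 CPM in WT stimulated, 58.6 to 73.5 CPM in T41B sham and 92.8 to 135 CPM in T41B stimulated slices. In each kind of slice the genotypes were apart, and the ranges of T41B sham and WT stimulated slices overlapped.

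Csf1 was called higher in T41B mice in all 4 comparisons, by log2 fold changes of 0.8 (SE 0.14, adjusted p = 0.000404 by edgeR) in sham VEH, 0.68 (SE 0.14, adjusted p = 0.00187 by edgeR) in stimulated VEH, 0.96 (SE 0.15, adjusted p = 8.27e-05 by edgeR) in sham BD10-2 and 0.89 (SE 0.15, adjusted p = 8.95e-05 by edgeR) in stimulated BD10-2 slices. Both VEH calls were lost with batch as a covariate, at 0.57 in sham slices (adjusted p from 5.4e-06 to 0.0644 over the alternatives) and 0.43 in stimulated slices (adjusted p from 7.43e-05 to 0.123). Within batches the T41B mean was higher by 0.08 to 1.2 in 4 of 4 for sham and by 0.46 to 0.97 in 3 of 3 for stimulated slices, on the log2(CPM + 1) scale. Il34, which encodes the other ligand of Csf1r, was called in none of the 8 stimulation and genotype comparisons, with log2 fold changes from -0.45 to 0.01. The shared receptor Csf1r was lower after stimulation, by log2 fold changes of -0.86 in WT VEH, -1.11 in T41B VEH, -0.81 in WT BD10-2 and -0.77 in T41B BD10-2 mice, and higher in T41B mice, by 1.17 in sham VEH, 0.92 in stimulated VEH, 1.09 in sham BD10-2 and 1.12 in stimulated BD10-2 slices, each called by edgeR.

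Il10, which encodes the cytokine that restrains the others, was the member with the emptiest sham slices. The WT VEH sham slices held 1 count in all, the T41B VEH sham slices 2 counts, both in Mouse1553, and all 8 BD10-2 sham slices held none, which allows up to 0.0339 CPM in the WT and 0.0282 CPM in the T41B group (3 counts over the group). Stimulated slices held 2.96, 1.38, 1.08 and 1.78 CPM in WT VEH mice and 3.91, 4.03, 3.03 and 2.21 CPM in T41B VEH mice. Under BD10-2 they held 1.78, 2.81 and 1.05 CPM in WT and 4.28, 3.12, 5.93, 1.68 and 1.07 CPM in T41B mice. Every stimulated slice thus contained Il10, and the genotypes overlapped.

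The ratio of rates of Il10 between stimulated and sham slices was 116 in WT VEH mice (counting interval 20.4 to 4600) and 125 in T41B VEH mice (34.1 to 1030). Under BD10-2 the stimulated level was at least 61.6-fold higher in WT and at least 107-fold higher in T41B mice. Between genotypes, the log2 fold change in stimulated slices was 0.87 (SE 0.44, adjusted p = 0.309 by edgeR) under VEH and 0.73 (SE 0.45, adjusted p = 0.356 by edgeR) under BD10-2, and neither passed. In sham slices Il10 was too low for a comparison.

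BD10-2 was compared with VEH in the same genotype and kind of slice. Il23a and Il27 are left aside here in sham and in WT slices, where they held at most 7 counts in a slice. Il10 is left aside in sham slices, where it held at most 2. Apart from these, no member was called in any of the 4 comparisons by edgeR or DESeq2, and edgeR called 0.0% of all genes in each. Of the members left, none had an unadjusted p under 0.05 in WT sham slices (1.92% of all genes were under it) or WT stimulated slices (5.61%). In T41B mice Lif was under it in sham slices (2.21%) and Osm in stimulated slices (3.9%). Il23a in WT sham slices was at 0 counts with BD10-2 against 3 with VEH. Lif in T41B sham slices was at 12 ± 8.07 CPM with BD10-2 (SD, n = 5) against 6.03 ± 1.41 CPM with VEH (SD, n = 4). The groups overlapped, and the fitted log2 difference of 0.99 (SE 0.36, adjusted p = 1.0 by edgeR) was 0.51 without Mouse1563. Osm in T41B stimulated slices was at 12.5 ± 3.08 CPM with BD10-2 (SD, n = 5) against 8.71 ± 1.69 CPM with VEH (SD, n = 4), which the fit gave as a log2 difference of 0.52 (SE 0.25, adjusted p = 1.0 by edgeR). For Il6, Tnf and Csf1 in T41B stimulated slices, the log2 fold changes were 0.42 (SE 0.34), 0.08 (SE 0.26) and 0.1 (SE 0.13). Since every labelled batch was of 1 treatment, the effects of treatment and of batch cannot be told apart.

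The interactions asked whether the response to stimulation differed. Il23a and Il27, which passed the filter only through stimulated T41B slices, are left aside here. So is Il10, whose sham slices held 0 to 2 counts. Of the other members, none was called by edgeR or DESeq2 for the T41B minus WT difference under VEH or BD10-2. Nor was any called for the BD10-2 minus VEH difference in WT or T41B mice, and edgeR called 0.0% of all genes in each. For the genotype difference, Tnf had an unadjusted p under 0.05 under VEH (8.64% of all genes) and under BD10-2 (4.35%). For the treatment difference, none of these members was under it in WT mice (1.73% of all genes) or in T41B mice (2.7%). For Il6 the genotype difference in response was 0.53 (SE 0.74) under VEH and 0.75 (SE 0.7) under BD10-2, and for Lif -0.05 (SE 0.54) and -0.46 (SE 0.52), on the log2 scale.

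The 4 gene lists below were chosen with earlier results known, so their calls after stimulation are descriptions and nothing is read from them. The genes named were picked in part because they were called. Among 24 other ligands and subunits of these families, 18 passed the filter. In stimulated slices 6 were called higher in WT VEH, 9 in T41B VEH, 7 in WT BD10-2 and 11 in T41B BD10-2 mice, and none lower. Their median log2 fold change ran from 0.98 to 1.52 over the 4 comparisons, against -0.05 to -0.01 over all genes. The largest among those averaging at least 1 CPM were Il11, a gp130 ligand, and Csf3, the granulocyte growth factor. The log2 fold change of Il11 was 5.13 (SE 0.42) in WT VEH and 4.42 (SE 0.35) in T41B VEH mice. That of Csf3 was 4.73 (SE 0.62) and 5.63 (SE 0.54). The TNF relatives Tnfsf9 and Tnfsf10 rose in all 4 comparisons, by 2.4 to 2.58 and 2.2 to 4.28. In T41B mice 5, 8, 4 and 7 of the 18 were higher in sham VEH, stimulated VEH, sham BD10-2 and stimulated BD10-2 slices and none lower, with medians of 0.69 to 0.85 against -0.03 to 0.01 over all genes. Ebi3, Tnfsf9 and Clcf1, a gp130 ligand, were called in all 4, Tnfsf9 by 1.29 to 1.5 and Clcf1 by 0.78 to 1.56, while Il11 was called in none.

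Receptors moved in both directions. Of 18 receptor genes, 17 passed the filter, and stimulation raised 4, 5, 4 and 6 and lowered 3 in each of WT VEH, T41B VEH, WT BD10-2 and T41B BD10-2 mice, with medians of -0.11 to 0.24. The inducible TNF receptor Tnfrsf1b rose by 3.59 to 3.99, Osmr by 1.58 to 2.22 and Tnfrsf1a by 1.43 to 1.84, while Csf3r fell, with log2 fold changes from -2.18 to -1.4. In T41B mice 8, 7, 9 and 11 of the 17 were higher in sham VEH, stimulated VEH, sham BD10-2 and stimulated BD10-2 slices, and 1 was lower in sham VEH slices, with medians of 0.51 to 1.04. Csf2rb, the shared chain of the IL-3 and GM-CSF receptors, differed by 1.69 to 3.47, Csf3r by 1.54 to 2.37 and Il10ra, the IL-10 receptor chain, by 1.15 to 2.31. Il10ra fell after stimulation in WT mice (-1.13 under VEH and -1.13 under BD10-2) and did not pass in T41B mice (-0.42 and 0.03).

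Of 18 genes of JAK-STAT and TNF receptor signalling, stimulation raised 11, 14, 10 and 13 and lowered none in the same order of groups, with medians of 0.54 to 1.26. Traf1, an adaptor of TNF receptors, rose by 2.6 to 3.3, the transcription factor Stat5a by 2.35 to 2.86, the ubiquitin ligase Birc3 by 2.06 to 2.56 and Rhbdf2, which helps the TNF-releasing protease ADAM17 to mature, by 1.5 to 1.89. In T41B mice 5, 10, 6 and 14 of the 18 were higher and none lower, with medians of 0.43 to 0.81, and Traf1, Rhbdf2 and Map3k8, a kinase upstream of ERK, were called in all 4.

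Of 19 genes of cytokine mRNA decay and feedback, stimulation raised 15, 15, 10 and 16 and lowered none, with a median of 0.71 in WT BD10-2 mice and higher medians in the others. Il1rn, the IL-1 receptor antagonist, rose by 7.16 to 9.48, the NF-kappaB inhibitor Tnfaip3 (A20) by 2.21 to 2.47 and Bcl3, an atypical IkappaB protein, by 1.98 to 2.31. Tnip3, which encodes a partner of A20, was at 0.0621 ± 0.0927 CPM in sham and 11.2 ± 10.9 CPM in stimulated T41B BD10-2 slices (SD, n = 5 each) and rose in all 4 comparisons. In T41B mice 10, 13, 10 and 14 of the 19 were higher and none lower, with medians of 0.72 to 1.14. Il1rn was called in 3 of them and Tnip3 in the 2 with stimulated slices, and Bcl3 was higher by 1.55 to 1.85 in all 4. The share of all genes called in these comparisons is given above for the cytokines themselves. No gene of the 4 lists was called for BD10-2 against VEH.

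Markers of several cell types moved with the groups. In these bulk samples, fewer cells of a type and less RNA per cell cannot be told apart. The 7 microglial markers (Aif1, Csf1r, Cx3cr1, Itgam, P2ry12, Ptprc and Tmem119), all above 0 in every group, summed to 167 to 220 CPM in WT VEH sham and 70.8 to 104 CPM in WT VEH stimulated slices. They summed to 303 to 529 CPM in T41B VEH sham and 151 to 198 CPM in T41B VEH stimulated slices, so the sum was lower after stimulation and higher in T41B mice. After stimulation 5, 6, 6 and 6 of the 7 were called lower in WT VEH, T41B VEH, WT BD10-2 and T41B BD10-2 mice. Ptprc went the other way, with log2 fold changes of 0.73, 0.4, 0.74 and 0.76, and was called higher in T41B BD10-2 mice (adjusted p = 0.0163 by edgeR). Under BD10-2 the ranges were 187 to 226 CPM in WT sham, 82.4 to 106 CPM in WT stimulated, 369 to 525 CPM in T41B sham and 165 to 260 CPM in T41B stimulated slices. Of the 7 markers, the T41B level was called higher for 6, 3, 5 and 7 in sham VEH, stimulated VEH, sham BD10-2 and stimulated BD10-2 slices, and their part in the cytokine differences was not tested.

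The 5 astrocyte markers, Gfap among them, summed to 1000 to 1320 CPM in WT sham, 1370 to 1790 CPM in WT stimulated, 2100 to 3250 CPM in T41B sham and 2820 to 4820 CPM in T41B stimulated slices of both treatments. Gfap alone differed between genotypes by log2 fold changes of 1.64 to 2.18, and Aqp4 by 0.64 to 1.02, each called in all 4 comparisons. Aldh1l1, Gja1 and Slc1a3 lay between 0.12 and 0.51 and were called in stimulated BD10-2 slices only. After stimulation Aqp4 and Gja1 were called higher in WT VEH (0.65 and 0.38), T41B VEH (0.64 and 0.57) and T41B BD10-2 mice (0.67 and 0.48). Gfap was called higher in WT VEH mice (0.69), and Slc1a3 in T41B VEH (0.39) and T41B BD10-2 mice (0.29). No astrocyte marker was called in WT BD10-2 mice, and Aldh1l1 in no combination. The part of the astrocyte markers in the cytokine differences was not tested. The 9 choroid plexus markers ran from 14.5 to 1230 CPM in WT VEH stimulated slices against 16.0 to 21.3 CPM in WT VEH sham slices, and all 9 were called higher there. They reached 532 CPM in T41B VEH sham slices and at most 29.1 CPM in the BD10-2 groups. Kcne2 was called higher after stimulation in all 4 combinations, by log2 fold changes of 2.09 to 4.79. Between genotypes Col8a1 (log2 fold change -2.69), Folr1 (-2.8) and Slc4a5 (-3.0) were called lower in stimulated VEH slices of T41B mice, and Ttr (8.53) higher in sham VEH slices. The part of these genes in the cytokine differences was not tested.

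Of the 6 neuronal markers, Neurod6 was called lower after stimulation in T41B VEH (log2 fold change -0.6), WT BD10-2 (-0.64) and T41B BD10-2 mice (-0.39), and lower in T41B mice in sham BD10-2 slices (-0.51). Snap25 was called lower after stimulation in T41B BD10-2 mice (log2 fold change -0.39) and lower in T41B mice in stimulated VEH slices (-0.47). Their part in the cytokine differences was not tested.

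Markers of blood leukocytes were low. The summed level over all samples was at most 0.548 CPM for 6 neutrophil genes, 3.04 CPM for 7 T and NK cell genes and 1.31 CPM for 4 B cell genes, and 3 of 4 mast cell genes (Cpa3, Tpsb2 and Cma1) were at 0 everywhere. Neutrophil Ly6g and Retnlg were at 0 in every stimulated group of both genotypes, and each also in some sham groups. T and NK cell markers ran from 0.0 to 0.793 CPM in WT and from 0.495 to 3.04 CPM in T41B groups. The 5 monocyte genes summed to 22.7 to 55.6 CPM, of which Vcan alone passed the filter and Chil3 was at 0 in 7 of the 8 groups, and 6 macrophage genes of brain borders and vessels, Mrc1 and Pf4 among them, summed to 0.799 to 6.6 CPM. Oligodendrocyte markers ran from 3050 to 10500 CPM and endothelial markers from 17.8 to 148 CPM, and none of these 8 genes was called between genotypes. After stimulation Pecam1 was called higher in T41B VEH (log2 fold change 1.37) and T41B BD10-2 mice (0.93), Ly6c1 lower in WT VEH (-1.2), WT BD10-2 (-1.49) and T41B BD10-2 mice (-0.9), and Mog lower in T41B VEH mice (-0.65). In stimulated BD10-2 slices the macrophage genes Ms4a7 (1.95) and F13a1 (1.47), Vcan (0.53) and the T cell gene Trbc2 (2.08) were called higher in T41B mice. Vcan was also called in stimulated VEH slices (0.53), and in T41B BD10-2 mice Pf4 (1.65) and Trbc2 (1.45) were called higher after stimulation. The part of these markers in the cytokine differences was not tested.

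The members did not vary as 1 block among stimulated samples. Over the 16 stimulated samples, Pearson's r of log2(CPM + 1) was positive for all 36 pairs of members, from 0.34 (Tnf with Il10) to 0.94 (Il6 with Lif). Every member had a higher mean in stimulated T41B than in stimulated WT slices, though for Tnf and Il10 the difference was not called. All pairs share the library. After subtraction of each group's mean, Il6 and Lif still correlated at 0.91 and Il12b and Tnf at 0.74. The next highest were Il6 with Csf1 at 0.59 and Il6 with Il27 at 0.49. Il6 with Tnf was at -0.1, Il23a with Il27 at -0.54 and Il23a with Il10 at -0.53. These values describe 16 samples of 4 groups and carry no test.

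**Figure D5:**
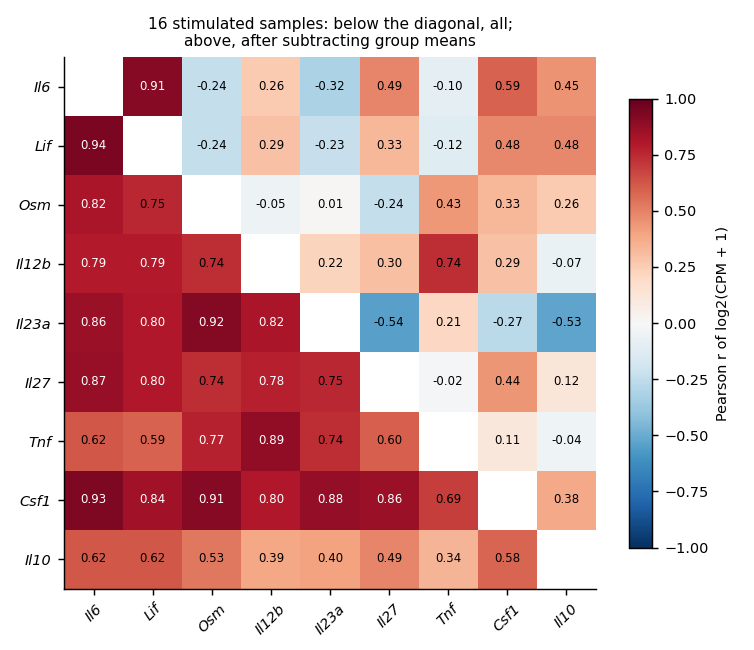
Pearson's r of log2(CPM + 1) between the 9 members over the 16 stimulated samples, below the diagonal over all samples and above it after subtracting each group's mean (colour scale from -1 to 1). Il6 and Lif stay at 0.91 above the diagonal and Il12b and Tnf at 0.74, and the next highest pair there, Il6 and Csf1, is at 0.59.

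The genes most like each member over the same 16 samples were taken among genes averaging at least 1 CPM. For Il6 they were Procr (r = 0.987, rho = 0.991), Gbp5 (r = 0.984, rho = 0.974) and Il4ra (r = 0.983, rho = 0.997), and the 3 values of r within groups were 0.946, 0.939 and 0.954. For Lif they were Gpnmb, Malt1 and Cemip2 (r from 0.958 to 0.96, within groups 0.864 to 0.925), and for Csf1 they were Sbno2, H2-D1 and Trex1 (r from 0.98 to 0.983, within groups 0.881 to 0.911). For Osm they were Spi1, Smoc1 and Sh2b2 (r from 0.965 to 0.972, within groups 0.701 to 0.85) and for Il12b Tnfaip2, Cd86 and Ptger4 (r from 0.899 to 0.91, within groups 0.69 to 0.773). For Tnf they were Bcl2a1b (r = 0.89), Rhog (r = 0.886) and Il12b itself (r = 0.886), with r within groups of 0.787, 0.796 and 0.741. For Il27 they were Slamf7, Ifi213 and Gm43196 and for Il10 Nfatc2ip, Ifi202b and Gbe1. For Il23a they were Thy1 (r = 0.965), Itgax (r = 0.961) and Il10ra (r = 0.955), whose r within groups was 0.408, 0.092 and 0.243, lower than over all 16 samples.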

How the data were processed

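RNA of 36 hippocampal slice libraries was made with a stranded ribosomal-depletion kit from 200 ng of total RNA, per the labels' protocols. The authors deposited expected counts from RSEM, estimates of the reads of each gene, unscaled between libraries. cutadapt 1.8.1, STAR 2.7.6a, RSEM 1.3.1, featureCounts 1.6 and SAMtools 1.11 and the build GRCm38.p6 (mm10) are named per the submitters' processing notes; the annotation release and strand setting are not given in the sources used here. Symbols matched 55154 of 55421 identifiers.

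Counts of the 4 pairs of libraries with equal labels were added, and all counts were then rounded to whole numbers. filterByExpr (minimum count 10) kept 19478 genes, which were scaled by TMM (factors 0.91 to 1.063) and tested with edgeR 4.0.16 (quasi-likelihood F test, 1 coefficient per group, Benjamini-Hochberg adjustment over all genes) in R 4.3.3, and the fit was tested on simulated data. DESeq2 1.42.0, RLE scaling, no filter, fits of the compared groups alone, a batch covariate, the mouse as a replicate block, first libraries only and leaving out each mouse were alternatives. No source says beyond the mouse numbers that samples were separate preparations. Samples per group limit precision, and counting intervals (95%) cover counting error only. Exon lengths came from GENCODE M21.

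Slices of the same mouse are paired by the mouse numbers in the labels: their deviations correlated at a mean r of 0.204 over 14 pairs (lowest 0.021), against -0.055 over 52 pairs of different mice. The 9 genes, the gene lists and the tests were chosen with earlier results of these data known. Of each list, up to 4 genes called in at least 3 stimulation comparisons and up to 3 called in at least 2 genotype comparisons, those with the largest mean absolute log2 fold change at 1 CPM or more, are named, with Il12a, Ebi3 and Il34 named in any case. Csf1r, Lta and Ltb were named after their values were seen. 1 gene of the marker lists is not reported here and was left out of the summed levels.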

Additional observations from a re-analysis of the deposited data

Results flagged for a closer look

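In 5 of 53 sets of values for 1 gene in 1 group of 4 or 5 mice, the highest sample stood apart from the rest by a Dixon gap test at the 95% level. Chance gives this in about 1 of 20 sets of normally distributed values. Sets of a few counts are not such values, so no comparison with that share is drawn. Lif in T41B VEH sham slices was at 8.14 CPM in Mouse1579, and Csf1 in WT VEH sham slices was at 48.5 CPM in Mouse1522. The other 3 are counts of 1 or 2 in groups whose other samples are at 0, where the size of the gap is fixed. They are Il27 in WT VEH sham slices at 0.0593 CPM and Il10 in the same group at 0.0593 CPM, both in Mouse1509, and Il10 in T41B VEH sham slices at 0.106 CPM in Mouse1553.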

How the results depend on the processing

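Over 998 alternatives for 77 values of single members, 931 kept the direction and the side of the threshold, 56 lost a call, 10 gained one and 1 turned its direction: Il10 in T41B against WT VEH sham slices, at 0.61 with all mice, -1.85 without Mouse1553 and up to 2.46 without 1 other mouse, where the groups hold 1 and 2 counts. The genotype counts again leave aside Il23a and Il27, and Il10 in sham slices. In T41B against WT VEH stimulated slices 5 of 7 members were called, and 3 with batch as a covariate (all genes: 3.08% higher). In T41B against WT BD10-2 sham slices 5 of 6 were called, and 4 with first libraries only (all genes: 4.63% higher). With 1 mouse left out, 3 to 5 were called there (all genes: 2.16% to 4.09% higher). With the mouse as a replicate block, which pairs the slices of a mouse, the members called after stimulation were 7, 9, 6 and 9 (WT VEH, T41B VEH, WT BD10-2, T41B BD10-2). For the interactions, with Il10, Il23a and Il27 left aside, no member was called. Apart from Osm, Il23a and Il27 as given above no call of a member changed. The planned permutation tests and pseudocount of 0.1 for members under the filter were not run, since all 9 passed it. Depth limits Il23a, Il27 and Il10 in sham slices, where 0 to 6 counts per sample set the values, and the 3 mice of each WT BD10-2 group limit its comparisons. The alternative without the first stimulated library of Mouse1592 was chosen after seeing the data.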

Other observations

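Il19, a neighbour of Il10 on chromosome 1 and a member of the IL-10 family, was chosen after its values were seen. It summed to 17 counts in WT VEH stimulated slices against 92 counts in T41B VEH stimulated slices, and to 13 against 147 counts under BD10-2, while the sham groups summed to 1 to 13 counts. Il20, the gene beside it, summed to 0 to 9 counts in a group.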
